A study of Mus musculus with 6 samples.

Results

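The 8 genes described here encode 5 Eph receptors (Epha1, Epha2, Ephb2, Ephb3 and Ephb4) and 3 ephrins (Efna1, Efnb1 and Efnb2). They were taken by symbol from the 23420 gene rows of each library, and all 8 had a row in every one. They were measured in 2 populations of dysplastic stem cells, DP-DSCs and TP-DSCs, which were sorted from Meta4 organoids, 1 line of mouse epithelial organoids, and sequenced as 3 polyA libraries each. From knowledge of the study rather than from the labels, the line came from mouse stomach, DP means positive for CD133 and CD166, and TP means positive for CD44v6 as well. Both populations share the line and its alleles, and no normal or untreated control is compared here. The labels give no treatment or time and call the samples independent, but not whether each came from a culture of its own. The p-values therefore speak only of the spread among these 6 samples, part of which may be technical.

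Eph receptors are the largest family of receptor tyrosine kinases, and their ligands, the ephrins, sit on the membrane of the neighbouring cell. A-type ephrins hang on a lipid anchor and mostly bind EphA receptors, while B-type ephrins cross the membrane, mostly bind EphB receptors and can signal back into the cell that carries them. In the intestine, EphB2 and EphB3 are targets of Wnt signalling that are high in crypts, and ephrin-B1 and ephrin-B2 are high on the differentiated cells above, an arrangement known for keeping the compartments apart.

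Reads assigned to genes ranged from 17015581 to 32671039 per library, and the number of genes with reads from 12504 to 14434 in DP-DSCs and from 10571 to 10982 in TP-DSCs. Library names carry the numbers 3840 (1 library of each group) and 4140 (2 of each), used here as an alternative grouping. What they mark is not said in the labels. The epithelial genes Epcam, Cdh1, Krt8, Krt18 and Krt19 summed to 7446 to 9758 CPM, where CPM is the count per 1000000 reads assigned to genes in that library. Ephb4 and Efnb2 are also known from veins and arteries, so markers of endothelium were checked. The 8 endothelial markers summed to 1.56 to 3.07 CPM in DP-DSCs and to 0 to 4.995 CPM in TP-DSCs (Tek in replicate 2), with Pecam1, Tie1, Emcn and Cldn5 at 0 in all 6 libraries. The 8 fibroblast and mural markers summed to at most 3.19 CPM, the 5 immune markers with a row to at most 0.644 CPM and the 5 neural and glial markers to at most 13.4 CPM. All 8 Eph and ephrin genes were well covered in each library, from 438 reads (Epha1 in TP-DSCs replicate 2) to 8725 reads (Epha2 in DP-DSCs replicate 2). Counting error alone, taken as 1 over the root of the count, is therefore at most 4.78% of a value. It treats each read as an independent draw, which was not tested.

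Of the 8 genes, Epha1 had the largest difference, at 2.004-fold lower in TP-DSCs, and Ephb3 the next, at 1.43-fold lower. Epha2, the most abundant receptor, stood 1.24-fold higher, and the other five lay closer to 0 or varied more within the groups than between them. None of these differences passed a false discovery rate of 0.05 over all genes in edgeR's quasi-likelihood test, in which 0 of 11925 genes (0%) passed. At an unadjusted p under 0.05 stood 1 of the 8, Epha1, against 6.1% of all genes tested. DESeq2, which called 278 of 12889 genes (2.16%), also called 0 of the 8. The median log2 fold change of the 8 was 0.01, with 4 above and 4 below 0, beside -0.02 over all genes tested. The sign held under every alternative run for Epha1, Epha2, Ephb3 and Efnb1. It turned without 1 library for Ephb2 (-0.14 without TP-DSCs replicate 1), Ephb4 (0.11 without TP-DSCs replicate 1), Efna1 (0.077 without DP-DSCs replicate 3) and Efnb2 (-0.10 without DP-DSCs replicate 1).

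**Figure D1:**
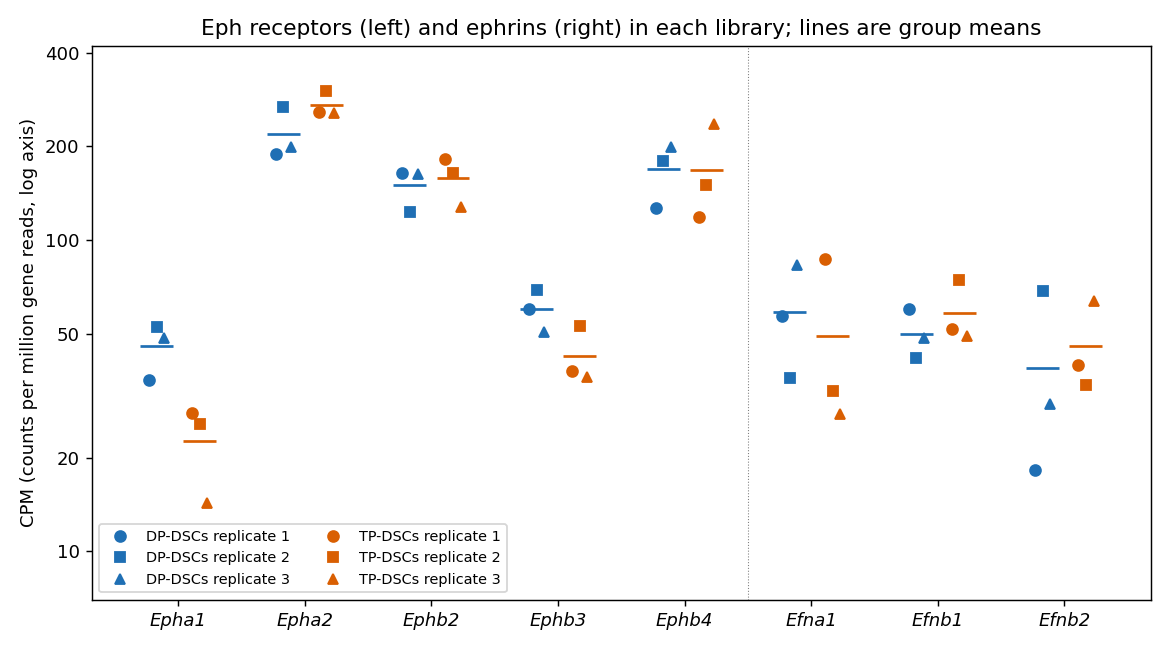
CPM (log axis) of the 5 receptors and 3 ephrins, with 1 point per library and a line at each group's mean of 3 libraries. Epha1 is the gene whose DP-DSC libraries (35.7 to 52.6 CPM) all lie above the TP-DSC libraries (14.3 to 27.9 CPM). Efna1 spreads widely inside both groups, and Efnb2 inside DP-DSCs.

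Among the A-type receptors, Epha1 is the founding member of the family and is carried mainly by epithelia. It lies on chromosome 6 from 42358487 to 42373268 in the GRCm38 annotation (the assembly of mm10), on the minus strand. Its level was 35.7, 52.6 and 48.5 CPM in DP-DSCs replicates 1, 2 and 3, and 27.9, 25.7 and 14.3 CPM in TP-DSCs replicates 1, 2 and 3. Every TP-DSC library was below every DP-DSC library, with TP-DSCs replicate 3 the lowest. The means were 45.6 ± 8.83 and 22.6 ± 7.32 CPM (SD, n = 3 each), and the log2 fold change was -1.003 ± 0.37 (SE; 95% interval -1.88 to -0.13) with an unadjusted edgeR p of 0.0299 and an adjusted p of 0.618. Among the 8, Epha1 alone had groups that did not overlap in CPM, beside shares over all 11925 genes of 8.56% with every TP-DSC library below and 3.87% with every one above. Of the 2593 genes with a DP-DSC mean of 30 to 60 CPM, 5.21% had every TP-DSC library below. In a bulk population, fewer cells that make a transcript and less transcript per cell cannot be told apart.

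Epha2 is widely made by epithelial and carcinoma cells. It lies on chromosome 4 from 141301240 to 141329384. It stood at 189, 267 and 200 CPM in DP-DSCs replicates 1, 2 and 3 and at 258, 302 and 255 CPM in TP-DSCs. DP-DSCs replicate 2 reached into the range of the TP-DSC libraries, and the other two DP-DSC libraries were below all of them. With means of 219 ± 42.2 and 272 ± 26.2 CPM (SD, n = 3 each), the log2 fold change was 0.31 ± 0.18 (95% interval -0.11 to 0.72; edgeR adjusted p = 0.999). Per kilobase of the longest coding transcript, the ratio of Epha1 to Epha2 was 0.225, 0.235 and 0.290 in DP-DSCs and 0.129, 0.102 and 0.0668 in TP-DSCs, without overlap. This ratio was chosen after its values were seen and is given without a test.

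Of the B-type receptors, Ephb2 and Ephb3 are the pair known from the crypt. Ephb2, on chromosome 4 from 136647539 to 136835988, stood at 165, 123 and 163 CPM in DP-DSCs replicates 1, 2 and 3 and at 182, 164 and 127 CPM in TP-DSCs. The groups covered almost the same range, with a log2 fold change of 0.06 ± 0.25 (95% interval -0.52 to 0.64; edgeR adjusted p = 0.999). Ephb3, on chromosome 16 from 21204755 to 21223305, stood at 59.8, 68.9 and 50.8 CPM in DP-DSCs and at 38.0, 53.0 and 36.3 CPM in TP-DSCs. TP-DSCs replicate 2 lay just above DP-DSCs replicate 3, and these 2 libraries made the whole overlap. With TMM scaling the order of that pair turned (52.0 CPM in DP-DSCs replicate 3 and 50.8 in TP-DSCs replicate 2). The groups no longer overlapped on that scale, for which the share of all genes without overlap was not counted. The means were 59.8 ± 9.02 and 42.4 ± 9.16 CPM (SD, n = 3 each), and the log2 fold change was -0.51 ± 0.25 (95% interval -1.09 to 0.07; edgeR adjusted p = 0.981). Per kilobase of the longest coding transcript, the ratio of Ephb3 to Ephb2 was 0.835, 1.28 and 0.716 in DP-DSCs. It was 0.478, 0.742 and 0.656 in TP-DSCs, and the ranges overlapped. The size of the ratio rests on that length, which was 10902 bases for Ephb2. Per kilobase of coding sequence, the means over 6 libraries were 17.2 for Ephb3 and 52.0 for Ephb2.

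Ephb4 pairs chiefly with ephrin-B2 and is best known from veins, though epithelia and carcinomas carry it too. It lies on chromosome 5 from 137350109 to 137378669. Its level was 127, 180 and 199 CPM in DP-DSCs replicates 1, 2 and 3 and 118, 150 and 235 CPM in TP-DSCs, so that TP-DSC libraries held both the lowest and the highest value. The log2 fold change was -0.03 ± 0.27 (95% interval -0.67 to 0.60; edgeR adjusted p = 0.999). The 4 libraries named 4140 all stood above the 2 named 3840. In the fit with terms for group and library number, the log2 difference of 4140 over 3840 was 0.51 (edgeR unadjusted p = 0.0646, adjusted p = 0.566).

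The stretches upstream of 4 receptor genes are shown because Epha1 and Ephb3 had the largest differences, Ephb2 is the crypt partner of Ephb3, and Epha2 had the highest level. They come from RefSeq on build GRCm38.p6, 5′ to 3′ on the gene's strand, and end at or before the first annotated transcript start. Capitals mark matches on either strand to a GC box (GGGCGG), an ETS core (CCGGAA), an AP-1 site (TGACTCA or TGAGTCA) or a TCF/LEF site (its letters being AACAAAG or else ATCAAAG or else TACAAAG or else TTCAAAG).
Epha1 chr6:42373269-42373518, minus strand: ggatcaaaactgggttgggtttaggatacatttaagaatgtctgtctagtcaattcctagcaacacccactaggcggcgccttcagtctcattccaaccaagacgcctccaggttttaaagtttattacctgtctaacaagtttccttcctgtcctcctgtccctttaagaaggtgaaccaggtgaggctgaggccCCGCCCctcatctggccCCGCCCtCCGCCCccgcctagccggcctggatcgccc
Ephb3 chr16:21204545-21204754, plus strand: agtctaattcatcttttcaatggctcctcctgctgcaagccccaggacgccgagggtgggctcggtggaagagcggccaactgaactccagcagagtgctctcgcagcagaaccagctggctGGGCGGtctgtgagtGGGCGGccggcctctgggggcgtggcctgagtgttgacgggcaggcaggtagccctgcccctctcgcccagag
Ephb2 chr4:136836013-136836262, minus strand: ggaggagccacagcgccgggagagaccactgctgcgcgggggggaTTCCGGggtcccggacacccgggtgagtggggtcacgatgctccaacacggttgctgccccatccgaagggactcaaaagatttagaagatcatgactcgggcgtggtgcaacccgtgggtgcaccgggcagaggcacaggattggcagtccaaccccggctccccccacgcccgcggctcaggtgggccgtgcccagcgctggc
Epha2 chr4:141300971-141301220, plus strand: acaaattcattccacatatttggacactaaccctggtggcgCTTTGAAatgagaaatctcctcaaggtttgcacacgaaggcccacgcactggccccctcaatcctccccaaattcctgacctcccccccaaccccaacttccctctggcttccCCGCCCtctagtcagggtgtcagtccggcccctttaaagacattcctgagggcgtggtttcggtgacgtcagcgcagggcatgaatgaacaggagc
Epha1 held 3 GC boxes, at 54, 37 and 30 bases before the RefSeq start. Ephb3 held 2 GC boxes and Ephb2 1 ETS core. Epha2 held 1 GC box and the letters of 1 TCF/LEF site, 209 bases before the start. RefSeq gave windows for all 8 genes (9 windows, with a pair for Efna1). In the 250 bases before the RefSeq start, the TCF/LEF letters occurred in no other of these windows and the AP-1 letters in none. Of 32817 windows of that size, 14.8% held a TCF/LEF match, 4.46% an AP-1 match, 32.7% a GC box and 12.0% an ETS core. A match is a description of letters and not a measured binding site.

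Turning to the ligands, Efna1 encodes ephrin-A1, a preferred partner of EphA2, and lies on chromosome 3 from 89271733 to 89281142. It stood at 57.0, 36.1 and 83.4 CPM in DP-DSCs replicates 1, 2 and 3 and at 86.8, 32.9 and 27.6 CPM in TP-DSCs. One library of each population was high (DP-DSCs replicate 3 and TP-DSCs replicate 1), and the spread inside each group exceeded the gap between the means of 58.8 ± 23.7 and 49.1 ± 32.8 CPM (SD, n = 3 each). The log2 fold change was -0.25 ± 0.55 (95% interval -1.54 to 1.05; edgeR adjusted p = 0.999). The difference of mean log2(CPM + 1) pointed up in the 3840 pair (0.60) and down among the 4140 libraries (-0.85). An interaction of group and library number in edgeR did not pass (unadjusted p = 0.119, adjusted p = 0.975).

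Efnb1 encodes ephrin-B1, a ligand of EphB2 and EphB3, and lies on chromosome X from 99136130 to 99148991. Its level was 59.9, 41.7 and 48.6 CPM in DP-DSCs and 51.7, 74.2 and 49.1 CPM in TP-DSCs. Apart from TP-DSCs replicate 2, the highest, the TP-DSC libraries lay inside the range of DP-DSCs, and the log2 fold change was 0.19 ± 0.28 (95% interval -0.46 to 0.84; edgeR adjusted p = 0.999). Efnb2 encodes ephrin-B2, the main ligand of EphB4, and lies on chromosome 8 from 8617434 to 8661242. It varied 3.76-fold over the libraries, all of it inside DP-DSCs, at 18.2, 68.6 and 29.6 CPM in replicates 1, 2 and 3, while TP-DSCs stood at 39.6, 34.2 and 63.6 CPM. All 3 TP-DSC values thus fell between the lowest and the highest DP-DSC value, and the log2 fold change was 0.25 ± 0.48 (95% interval -0.88 to 1.38; edgeR adjusted p = 0.999). Per kilobase of the longest coding transcript, the ratio of Efnb2 to Ephb4 ran from 0.130 to 0.345 in DP-DSCs and from 0.207 to 0.303 in TP-DSCs. The ratio of Efnb1 to Ephb2 ran from 0.998 to 1.22 and from 0.949 to 1.51, so neither ligand to receptor ratio separated the populations. The size of both ratios rests on the length used. Per kilobase of coding sequence, the means were 42.0 for Efnb2, 56.3 for Ephb4, 52.4 for Efnb1 and 52.0 for Ephb2.

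**Figure D2:**
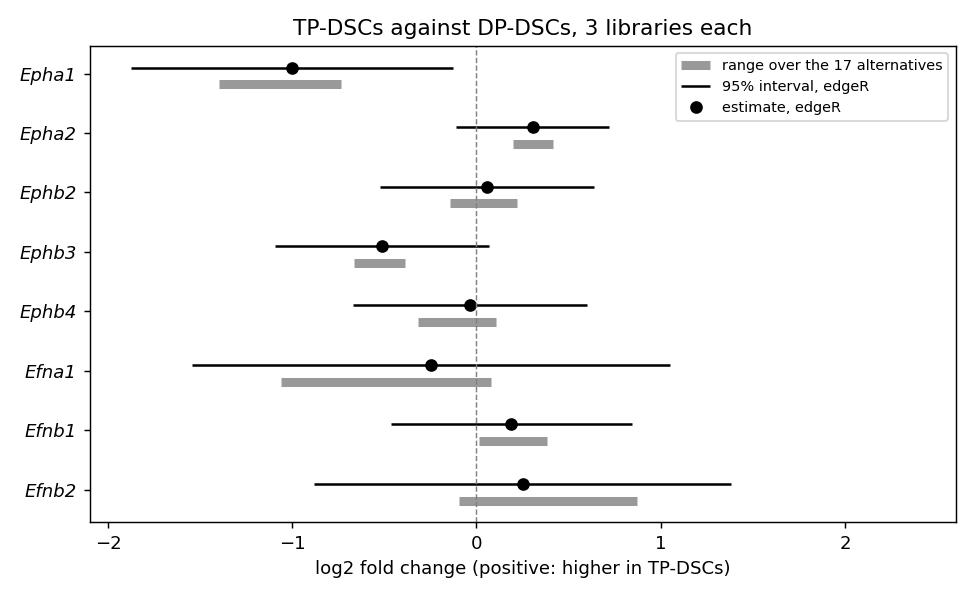
Log2 fold changes of TP-DSCs over DP-DSCs (x axis) for the 8 genes, with edgeR's estimate and 95% interval in black and the range over the 17 alternatives in grey. The interval of Epha1 (-1.88 to -0.13) lies below 0 before adjustment over all genes, and those of the other seven include 0.

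How much a gene varied between libraries of one population differed within the family. The SD of log2(CPM + 1) inside groups was 0.75 for Efna1 and 0.74 for Efnb2, above 90.6% and 86.4% of genes whose mean CPM lay within 1.5-fold of theirs. Ephb4 followed with 0.43, above 78.9% of such genes. Epha2 (0.21), Ephb2 (0.25), Ephb3 (0.26), Efnb1 (0.29) and Epha1 (0.41) were below the median of genes at their level. With each read taken as an independent draw, the largest counting errors of Efna1 and Efnb2 were 4.23% and 4.15%. Their coefficients of variation were far larger, at 40.3% and 68.0% in DP-DSCs and 66.8% and 34.2% in TP-DSCs.

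Levels of different genes were compared per kilobase of the longest protein-coding transcript, as means over all 6 libraries. Among receptors Epha2 led with 62.6 ± 10.9 CPM per kilobase (SD, n = 6), followed by Ephb4 (38.8 ± 10.4), Ephb2 (14.1 ± 2.16), Ephb3 (10.8 ± 2.64) and Epha1 (10.4 ± 4.43). Epha2 stood above Ephb4 in 6 of 6 libraries, although the ranges of the 2 genes over libraries overlapped, and Ephb3 stood above Epha1 in only 3. Among the 3 ephrins of the 8 genes, the order was Efna1 (33.1 ± 16.0), Efnb1 (16.6 ± 3.499) and Efnb2 (8.83 ± 4.13). Outside the 8, Efna4 stood at 23.7 ± 13.5 CPM per kilobase, between Efna1 and Efnb1. Efna3, at 8.24 ± 1.85, was close to Efnb2. Every pair of neighbours in the order of all 8 had overlapping ranges.

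The levels depended on how length was defined. Ephb2 has a longest transcript of 10902 bases but a longest coding sequence of 2961 bases, and per kilobase of coding sequence it stood at 52.0 ± 7.94, close to Ephb4 at 56.3 ± 15.1. On that scale Efna1 (87.7 ± 42.5) passed Epha2 (83.6 ± 14.6). In the means over 6 libraries, Epha2, Ephb4 and Ephb2 stayed the first 3 receptors, and Efna1, Efnb1 and Efnb2 kept their order. This held with the longest transcript, the union of exons and the coding sequence alike. Ephb3 and Epha1 exchanged places with the union of exons.

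**Figure D3:**
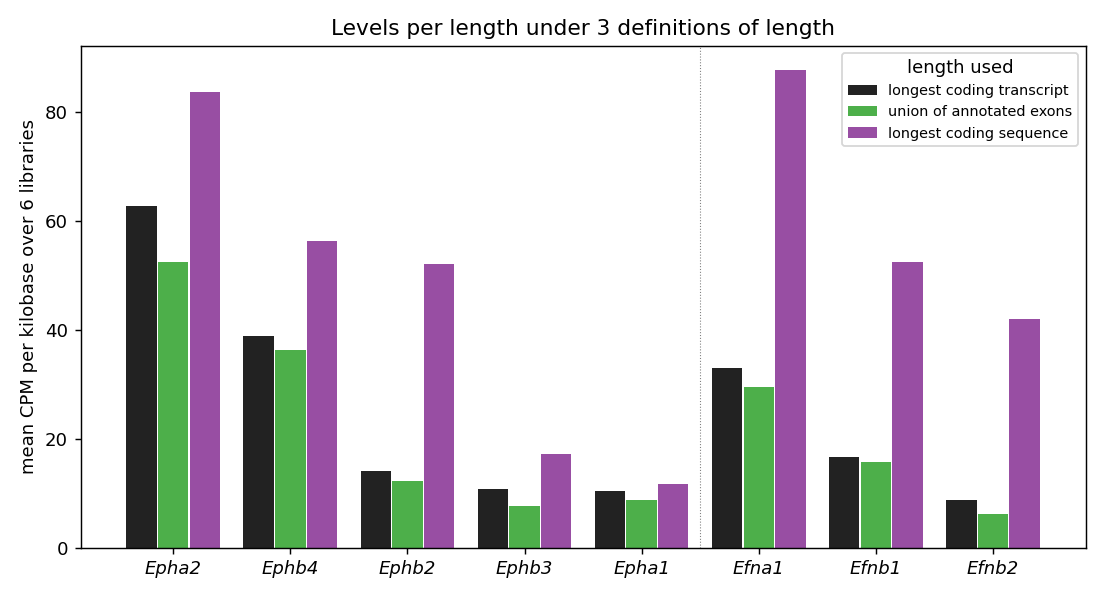
Mean CPM per kilobase over 6 libraries (y axis, from 0) of each gene, with bars for 3 definitions of gene length. Epha2 is the highest receptor under each, and the bar of Ephb2 rises from 14.1 to 52.0 CPM per kilobase when only coding sequence is counted.

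Added together per kilobase of the longest transcript, the 8 genes came to 195 ± 19.0 in DP-DSCs and 196 ± 7.71 in TP-DSCs (SD, n = 3 each). The 5 receptors summed to 135 ± 17.8 and 138 ± 10.5, and the 3 ephrins to 59.5 ± 11.7 and 57.5 ± 17.3 CPM per kilobase. The 5 receptors made up 62.0 to 76.0% of the sum over the libraries. Other genes of the family, such as Efna4, were not in this sum. Epha2 gave 24.3 to 39.4% and was the largest part in every library except DP-DSCs replicate 3, where Efna1 gave 24.4%. Epha1 gave 6.29 to 7.996% in DP-DSCs and 2.31 to 4.18% in TP-DSCs. All these shares rest on the longest transcript and were not computed with the other definitions of length. Per kilobase of coding sequence, the mean of Efna1 (87.7) was above that of Epha2 (83.6).

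**Figure D4:**
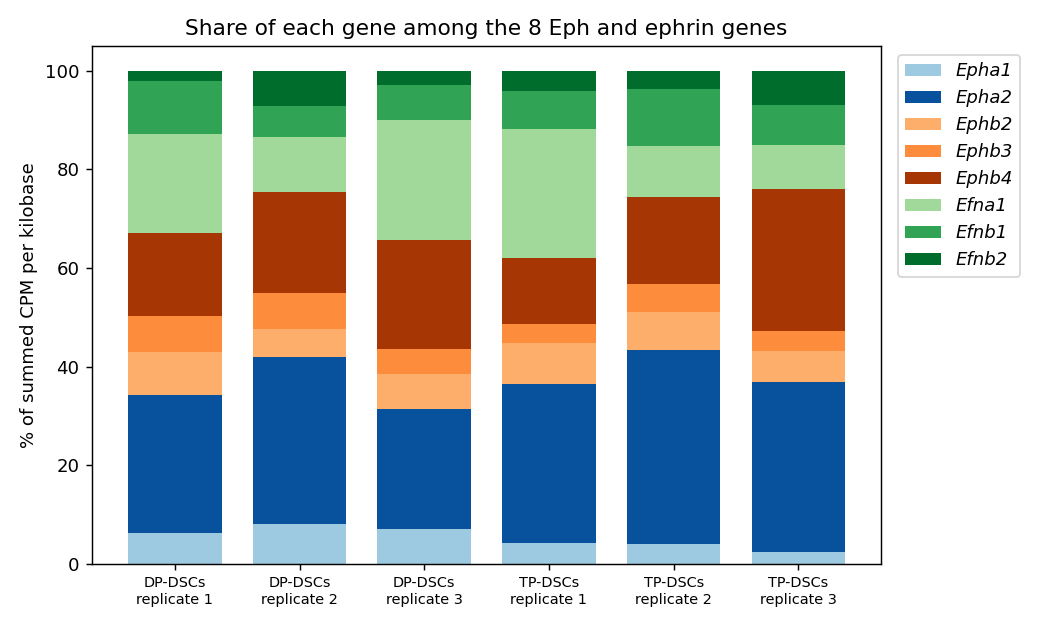
Share of each gene in the summed CPM per kilobase (longest coding transcript) of the 8 genes, 1 bar per library. The pale blue segment of Epha1 is shorter in the 3 TP-DSC libraries (2.31 to 4.18%) than in the 3 DP-DSC libraries (6.29 to 7.996%).

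The other 14 genes of the family all had a row, and 8 of them had enough reads to be tested. Of these 8, 2 were above and 6 below 0, with a median log2 fold change of -0.41, and 0 passed in edgeR. Epha4, a receptor that binds both classes of ephrin, stood at 26.3, 51.4 and 44.6 CPM in DP-DSCs and 16.6, 31.2 and 39.3 CPM in TP-DSCs. Per kilobase of the longest coding transcript, its mean over 6 libraries was 5.52, beside 10.4 for Epha1. Efna4 ran from 17.1 to 73.8 CPM in DP-DSCs and from 15.2 to 44.3 in TP-DSCs, and Efna3 from 18.4 to 22.0 and from 11.5 to 24.0 CPM. Efna5 averaged 7.56 ± 0.572 and 12.4 ± 6.65 CPM (SD, n = 3 each). The remaining ones were scarce or patchy. Ephb6, whose kinase domain is inactive, stood at 0.644, 13.2 and 10.7 CPM in DP-DSCs but had 0 reads in TP-DSCs replicates 1 and 2 and 17.1 CPM in replicate 3. Efnb3 had 1.35, 3.67 and 2.59 CPM in DP-DSCs and 8.30, 0 and 0 CPM in TP-DSCs.

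Epha7 stood at 0.552, 1.19 and 5.22 CPM and Efna2 at 1.63, 0.826 and 3.33 CPM in DP-DSCs, and both had 0 reads in every TP-DSC library. DESeq2 called these 2 (adjusted p = 0.0315 and 0.0313), beside 2.16% of all genes it tested. On the filtered genes DESeq2 called 0 of the 8 tested among these other 14 family genes, Epha7 and Efna2 included. In edgeR neither Epha7 nor Efna2 passed (adjusted p = 0.164 and 0.123). Absence at this level was common. Of the 603 genes with a DP-DSC mean of 1 to 2 CPM, 44.4% had 0 reads in all TP-DSC libraries, and of the 638 genes at 2 to 4 CPM, 19.7%. Of the 2593 genes at 30 to 60 CPM, where Epha1 lies, 0% had 0 reads in all 3 and at most 0.540% in any 1 TP-DSC library. The other 6 family members (Epha3, Epha5, Epha6, Epha8, Epha10 and Ephb1) had no reads in any library, except Epha3 with 0.0740 CPM in DP-DSCs replicate 3.

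Genes that carry or end Eph signals were counted next. Of 50 such genes (Src family kinases, adaptors, exchange factors, phosphatases, the sheddase Adam10 and others), 46 were tested, 19 above and 27 below 0, with a median log2 fold change of -0.12. None passed in edgeR, and 2 of 46 stood at an unadjusted p under 0.05, no larger a share than the 6.1% of all genes. These 2, named by their p alone, were Rock2, a kinase that acts on the actin cytoskeleton, with means of 120 ± 27.6 and 186 ± 6.04 CPM for DP-DSCs and TP-DSCs, and Inppl1, a lipid phosphatase that binds EphA2, with 127 ± 17.7 and 177 ± 12.3 CPM (SD, n = 3 each). Src had the third smallest p, at 111 ± 45.6 and 74.1 ± 10.9 CPM. Every TP-DSC library lay above every DP-DSC library for 3 of the 46 genes and below for 5, near the shares over all genes (3.87% and 8.56%).

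Since Ephb2 and Ephb3 are known as Wnt targets, 16 other Wnt target genes were set beside them. They split evenly, 8 above and 8 below 0, with a median log2 fold change of -0.0025 and 0 genes past the threshold in edgeR. The smallest p belonged to Apcdd1, a Wnt inhibitor, with a mean of 6.996 ± 6.77 CPM among DP-DSC libraries and of 0.0215 ± 0.0372 CPM among TP-DSC libraries (SD, n = 3 each), which DESeq2 called (adjusted p = 0.000285) and edgeR did not (adjusted p = 0.147). Prox1, a transcription factor, followed with 25.6 ± 5.67 and 45.2 ± 5.50 CPM, and then Notum, a secreted Wnt inhibitor, with 105 ± 50.4 and 55.8 ± 38.4 CPM. The log2 fold changes of Ephb2 (0.06) and Ephb3 (-0.51) lay on either side of that median.

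Among 9040 genes with reads in all 6 libraries and a mean of at least 10 CPM, the gene whose log2(CPM + 1) ran most alike over the 6 libraries was found for each of the 8. It was Pes1 for Epha1 (Pearson r = 0.993), Birc5 for Epha2 (0.994), Gapdh for Ephb2 (0.993), Syngr2 for Ephb3 (0.985), Atp2c2 for Ephb4 (0.991), Parva for Efna1 (0.977), Diap1 for Efnb1 (0.973) and Fam173a for Efnb2 (0.981). With 6 libraries such values are readily found among so many genes, and from 9 (Efna1) to 38 genes (Ephb4) had an r of at least 0.95. These are descriptions without a test, over libraries that also differ in depth and population. Of the 8 most alike genes, none was another of the family members studied.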

How the data were processed

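Each population gave 3 RNA samples, which were sequenced with a stranded kit after polyA selection, per the labels' protocols. The deposited files give whole-number read counts per gene symbol, unnormalized. STAR 2.7.3a, Partek, DESeq2 3.5 and mm10 stand in the submitters' processing notes; their roles are not stated. The counting tool and its strand setting were not given in the sources used here, so reads of overlapping or antisense genes may be shared. Rows for reads in no gene and ambiguous reads (1.09 to 1.86% of all reads) entered neither library sizes nor tests. Reads in no gene made up 14.1 to 15.4% of all reads in DP-DSC libraries and 16.2 to 20.3% in TP-DSC libraries.

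CPM is a count per 1000000 gene reads of its library. Groups followed the cell subtype label, and replicates were numbered in order of deposit, so numbers pair no samples. No 2 libraries were alike within counting noise. Counts were tested with edgeR 4.0.16 in R 4.3.3 (filterByExpr with minimum count 10 and total 15, TMM, quasi-likelihood F test, group as the only term, Benjamini-Hochberg over 11925 genes at 0.05). The SE is the log2 fold change over the root of F, and 95% intervals use the fit's moderated degrees of freedom. Lengths and coordinates came from GENCODE M21 (GRCm38). Alternatives were other scalings (DESeq2 size factors, upper quartile, library size), DESeq2 1.42.0, limma-voom (limma 3.58.1) and other filters. Further ones were a block for the number 3840 or 4140, the 4 libraries named 4140 by themselves and leaving out each library. Chosen after seeing the data were DESeq2 on filtered genes, genes with reads in all 6 libraries, the interaction with that number and coding length. The genes, lists and tests were chosen with earlier results of these data known. Named were all 8 genes, family genes with a mean of at least 1 CPM, up to 3 genes per other list by p, and 1 most alike gene each.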

Additional observations from a re-analysis of the deposited data

How the results depend on the processing

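Over the 17 alternatives, the log2 fold change stayed below 0 for Epha1 (-1.40 to -0.74, adjusted p 0.192 or higher) and Ephb3 (-0.67 to -0.39) and above 0 for Epha2 (0.20 to 0.42) and Efnb1 (0.01 to 0.38). Among the 17, the setting of genes with reads in all 6 libraries keeps the main fold changes by construction and only readjusts p. No alternative called any of the 8 genes. The sign of the other four turned with single libraries, and with no scaling or filter. Leaving out each library gave -0.14 to 0.22 for Ephb2 (below 0 without DP-DSCs replicate 2 or TP-DSCs replicate 1), -0.32 to 0.11 for Ephb4 (above 0 without DP-DSCs replicate 3 or TP-DSCs replicate 1 or 2), -1.06 to 0.077 for Efna1 (above 0 without DP-DSCs replicate 3 or TP-DSCs replicate 2 or 3) and -0.10 to 0.87 for Efnb2 (below 0 without DP-DSCs replicate 1 or TP-DSCs replicate 3). In the libraries named 4140 alone, Ephb2 stood at -0.044 and Efnb2 at -0.046. DESeq2 called 278 genes, and 93 on the filtered genes, where edgeR called 0 with 728 at an unadjusted p under 0.05 and limma-voom called 0. The cause was not tested. Dividing by all reads lowered both group means of each of the 8 genes. For Epha2 the DP-DSC mean fell from 219 to 183 CPM and the TP-DSC mean from 272 to 217 CPM, so TP-DSCs stayed higher. The DP-DSC and TP-DSC means became 126 and 127 CPM for Ephb2, and 50.1 and 33.9 CPM for Ephb3. Levels per 3 times the protein length were not run, as no protein table was used here. No paired analysis was possible because the labels pair no libraries. With 3 libraries a group, the intervals of the fold changes limit what these genes can show. What read depth adds to their width was not tested.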

Other observations

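Pairs among the 8 genes were compared over the 6 libraries, 28 in all, with log2(CPM + 1) and an exact two-sided permutation test. By Pearson's r the closest relation was between Epha1 and Ephb3 (Pearson r = 0.78, exact p = 0.0667, adjusted p = 0.766; Spearman rho = 0.71, exact p = 0.136, adjusted p = 0.832). Without the 2 libraries farthest from the median of Epha1, r was 0.32. The 6 libraries span both populations, and population was not taken out of these relations. Epha1 and Ephb3 both had lower means in TP-DSCs. By Spearman's rho the closest was between Ephb2 and Ephb4, in opposite directions (r = -0.74, exact p = 0.111, adjusted p = 0.766; rho = -0.83, exact p = 0.0583, adjusted p = 0.832), with r = -0.65 without the 2 libraries farthest from the median of Ephb2. Of the 28 pairs, 0 had an exact p under 0.05 by either measure, before or after Benjamini-Hochberg adjustment.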
